A study of Drosophila melanogaster with 13 samples.

Results

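The genes described are the subunits of the proteasome in cultured ovarian somatic cells (OSC) of Drosophila melanogaster, a line of somatic follicle cell origin labelled wildtype. Members were taken by name, as rows called Prosalpha, Prosbeta, Rpn or Rpt followed by a number. This gave 35 rows in each of the 2 deposited tables, out of 8291 gene rows in the table for Armitage knockdown and 8297 in the table for Yb knockdown. The annotation holds 48 genes of these names. Of the 35 rows, 31 are general copies, 13 of the 20S core and 18 of the 19S cap. The other 4, Prosalpha1R, Prosbeta2R2, Rpt3R and Rpt6R, carry an R after the number, the mark of the testis-type or related copies, and are kept apart. The 13 genes without a row are Prosalpha1 and 12 copies with T or R in the name (Prosalpha3T, Prosalpha4T1, Prosalpha4T2, Prosalpha6T, Prosbeta2R1, Prosbeta4R1, Prosbeta4R2, Prosbeta5R1, Prosbeta5R2, Rpt4R, Rpn12R and Rpn13R).

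Cells were transfected with siRNA against Armitage (siARMI, gene armi), Yb (siYB, gene fs(1)Yb) or luciferase (siLUC, the control) at 0 and 48 h and harvested at 96 h, with 3 libraries per group, poly(A)-selected by the labelled molecule and protocol (the letters RZ in the library names are not explained). Armitage is an RNA helicase and Yb a Tudor domain protein, both known for making piRNAs in follicle cells. All groups share the wildtype line and the transfection itself, and both comparisons share the siLUC libraries. Libraries of RNA labelled with 4-thiouridine were not analysed here. Nothing in the labels tells if the 3 libraries were grown as separate cultures, and the p-values reflect the spread between these samples alone, which may be technical.

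The 26S proteasome degrades proteins that carry ubiquitin chains. Its 20S core is a barrel of outer alpha rings and inner beta rings, with the protease sites inside the beta rings. The 19S cap sits on the barrel: its base holds a ring of ATPases (Rpt) that unfold substrates and thread them into the core, with ubiquitin receptors, and its lid carries the deubiquitinase that removes the chain. In flies, as in other animals, the subunit genes can be raised together through the transcription factor Cnc when proteasome activity is short. Some fly subunits have a related copy known for expression in the testis.

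For each row the authors' deposited tables give a p-value, the same p-value adjusted over all rows (Benjamini-Hochberg), a log2 fold change shrunk toward 0 with its error, and 1 normalised read count averaged over both groups. Values of single libraries were not analysed here, so no spread between libraries can be shown beside a level. A gene is written as rising, falling or called when its adjusted p in the authors' deposited table is under 0.05. The siRNAs worked on their own targets: armi stood at −1.92 ± 0.07 after Armitage knockdown and fs(1)Yb at −2.17 ± 0.51 after Yb knockdown, both as log2 fold change ± error in the authors' deposited tables. Of 8289 gene rows in the authors' deposited siARMI table, the share called was 28.3%, made up of 14.9% called higher and 13.4% called lower. The total reads per library, and with them the precision that depth gives, are unknown.

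Most subunits of the 19S cap were higher by a small amount after Armitage knockdown. Of its 18 general members 13 rose, 0 fell and 5 were not called in the authors' deposited table, against 14.9% of all gene rows called higher. None of the 18 was lower at an unadjusted p under 0.05 either, and 14 were higher. Over all gene rows 37.1% had an unadjusted p under 0.05, in either direction. Every one of the 18 log2 fold changes was positive, from 0.07 to 0.34 in the authors' deposited table, where 48.9% of all gene rows were positive. The median was 0.22, a rise of 16.6%, and the median over all gene rows was −0.01. Among 868 gene rows with mean counts in the members' span and coding lengths in that of the cap, 55.0% were positive. Their median was 0.04, and 27.1% were called higher.

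The base of the cap had 8 of 10 members called higher in the authors' deposited table, against 14.9% of all gene rows and 24.9% of those in the members' span of mean counts. The largest change was that of Rpn10 (FBgn0015283; BDGP6.54 chromosome 3L, 21537000 to 21538582, plus strand), a receptor that binds ubiquitin chains. In the authors' deposited table its mean normalised count was 1495 and it rose by 0.34 ± 0.07 on the log2 scale, or 26.9% (adjusted p = 4.99e-06). Rpn13, another ubiquitin receptor of the base, rose by 0.30 ± 0.08 (adjusted p = 0.00151) in the authors' deposited table. Rpn10 and Rpn13 thus stood in the upper part of the range of the base. The large scaffold subunits also rose, Rpn1, which docks ubiquitin shuttle proteins, by 0.23 ± 0.07 (adjusted p = 0.00326) and Rpn2 by 0.18 ± 0.06 (adjusted p = 0.00902) in the authors' deposited table. Rpn2 had the highest mean count of the general members, 3943.

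Of the 6 ATPases of the base, 4 passed the test, all upward, in the authors' deposited table. The share called higher was 14.9% of all gene rows and 24.9% of those in the members' span of mean counts. Rpt2 (FBgn0015282; BDGP6.54 chromosome 3R, 23929873 to 23931558, minus strand), whose tail in yeast helps to open the gate of the core, rose by 0.34 ± 0.08, or 26.7% (adjusted p = 2.11e-04, authors' deposited table). Rpt4 followed at 0.31 ± 0.08, Rpt6 at 0.21 ± 0.07 and Rpt1 at 0.19 ± 0.07 in the authors' deposited table. Rpt5 at 0.18 ± 0.09 (adjusted p = 0.0900) and Rpt3 at 0.11 ± 0.07 (adjusted p = 0.259) did not pass in the authors' deposited table. All 6 ATPases, which together form a single ring, thus had positive values, from 0.11 to 0.34. The annotated span of Rpt1 overlaps a gene on the same strand, CG17985, which stood at 0.42 ± 0.14 in the authors' deposited table. How reads of any shared stretch were counted is not given in the sources used here.

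The lid had 5 of 8 members called higher in the authors' deposited table, against the same background of 14.9% and 24.9%. The subunits Rpn7, at 0.31 ± 0.08 (adjusted p = 2.11e-04), Rpn12, at 0.24 ± 0.09, Rpn6, at 0.24 ± 0.09, and Rpn3, at 0.18 ± 0.07, which build the scaffold of the lid, were higher in the authors' deposited table. Rpn8, the inactive partner of the deubiquitinase, rose by 0.25 ± 0.09 in the authors' deposited table. Rpn11, the deubiquitinase itself, was not called, at 0.10 ± 0.08 (adjusted p = 0.371, authors' deposited table), and neither were the scaffold subunits Rpn9 at 0.12 ± 0.07 and Rpn5 at 0.07 ± 0.08. Rpn3 lay just inside the threshold (adjusted p = 0.0470, authors' deposited table). Rpn8 overlaps Slik on the opposite strand, and Slik fell by 0.28 ± 0.07 in the authors' deposited table. These overlapping genes thus moved in opposite directions.

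**Figure D1:**
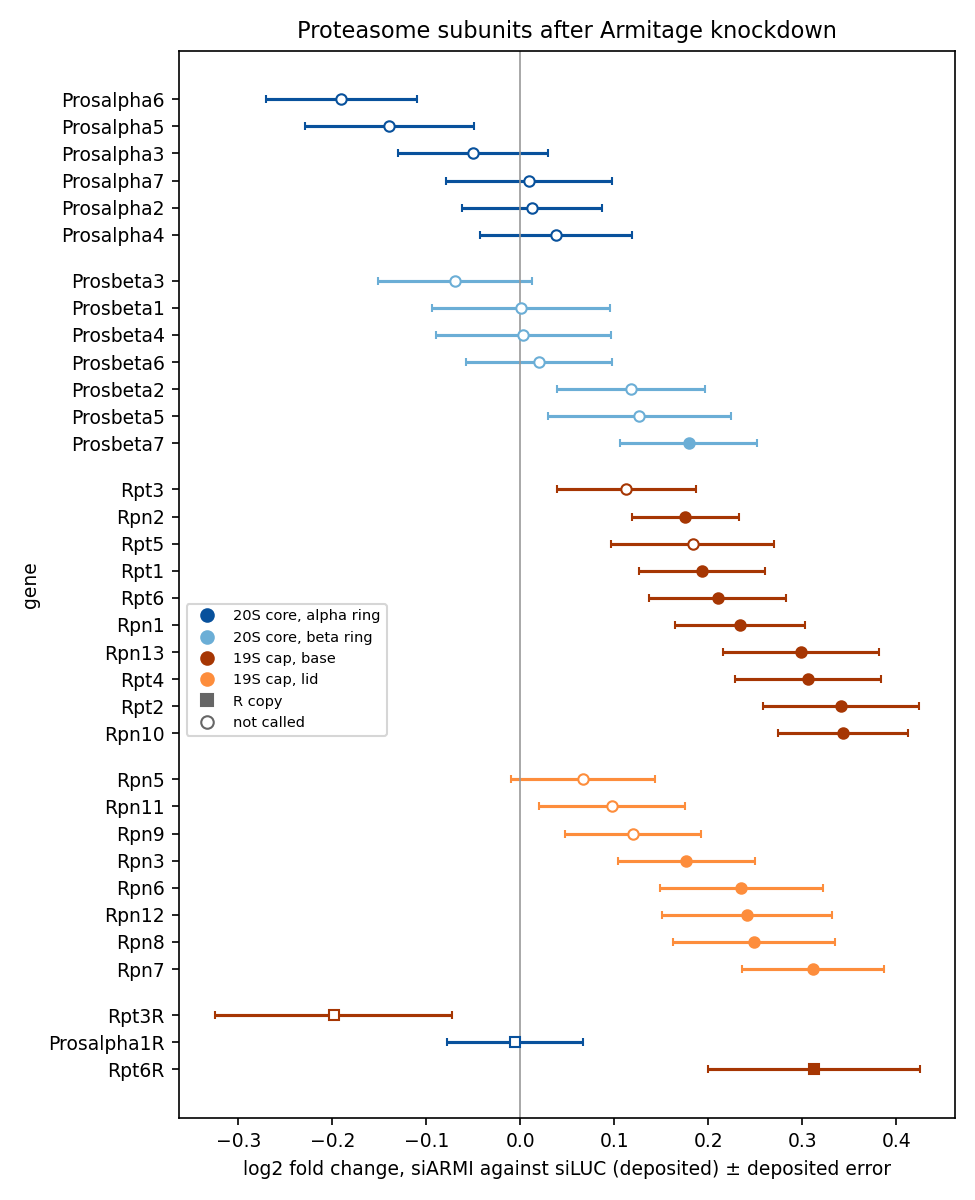
Log2 fold change of each proteasome subunit after Armitage knockdown (x axis, siARMI against siLUC, authors' deposited table; bars are the deposited error), grouped by subcomplex on the y axis; filled points are called at an adjusted p under 0.05 and squares are R copies. All 18 members of the 19S cap lie right of 0 and the 13 of the 20S core spread around it, while Prosbeta2R2, at −2.08, lies outside the axis and is not drawn.

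Of the 13 general members of the 20S core 1 rose, 0 fell and 12 were not called in the authors' deposited table. Over all gene rows 14.9% were called higher and 13.4% lower, and 24.9% and 22.3% of those in the members' span of mean counts. The counts of 1 and 0 among 13 genes lie below these shares. That difference was not tested, so it is no result about the core. At an unadjusted p under 0.05 there was 1 higher and 1 lower, against 37.1% of all gene rows in either direction. Log2 fold changes ran from −0.19 to 0.18 in the authors' deposited table, with a median of 0.01; 9 were positive and 4 negative.

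The 6 alpha subunits, which form the ring that gates the entry to the barrel, had log2 fold changes from −0.19 to 0.04. None was called in the authors' deposited table, against 28.3% of all gene rows. Prosalpha6 was the lowest at −0.19 ± 0.08 (adjusted p = 0.0525), just outside the threshold, and Prosalpha5 stood at −0.14 ± 0.09 in the authors' deposited table. Prosalpha4, the highest, was at 0.04 ± 0.08, and Prosalpha3, Prosalpha2 and Prosalpha7 were at −0.05 ± 0.08, 0.01 ± 0.07 and 0.01 ± 0.09, by the authors' deposited table.

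Of the 7 beta subunits Prosbeta7 rose, by 0.18 ± 0.07, or 13.2% (adjusted p = 0.0449, authors' deposited table), just inside the threshold (FBgn0250746; BDGP6.54 chromosome 3R, 5357012 to 5358364, minus strand). The catalytic subunits were not called: Prosbeta5, which carries the chymotrypsin-like site, stood at 0.13 ± 0.10, Prosbeta2 with the trypsin-like site at 0.12 ± 0.08 and Prosbeta1 with the caspase-like site at 0.00 ± 0.09 in the authors' deposited table. The structural subunits Prosbeta6, Prosbeta4 and Prosbeta3 were at 0.02 ± 0.08, 0.00 ± 0.09 and −0.07 ± 0.08, by the authors' deposited table.

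Set side by side, 12 of the 18 cap members had a log2 fold change above that of Prosbeta7, the highest of the core, and 10 of the 13 core members lay below Rpn5, the lowest of the cap. The subcomplexes overlapped in between, through 6 cap and 3 core members. The spread among members was small in both, with an SD of 0.08 over the cap and 0.10 over the core, close to the median deposited errors of 0.08 and 0.08. Rpn10 stood 0.28 above Rpn5 within the cap. The difference between cap and core was not tested, since a test over samples needs values of single libraries.

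Coding length differed between the subcomplexes, while their mean counts overlapped. The members' mean counts ran from 755 to 3943 in the authors' deposited table, and of 1564 gene rows in that span 24.9% were called higher. Coding lengths were 603 to 846 bases in the core and 792 to 3087 in the cap, so Rpn12 was the 1 cap gene shorter than the longest core gene. Among gene rows in the members' count span, 28.4% of 88 with a coding length in the range of the core were called higher and 27.1% of 868 in the range of the cap. Of the members themselves 7.69% in the core and 72.2% in the cap were called higher, and the part of coding length in this was not tested. Across genes, which share their libraries and are no replicates, log2 fold change and coding length were related with Spearman's rho at 0.63 and Pearson's r at 0.44 over the 31 general members. Within the core these were 0.33 and 0.22 (13 genes), and within the cap −0.22 and −0.09 (18 genes).

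**Figure D2:**
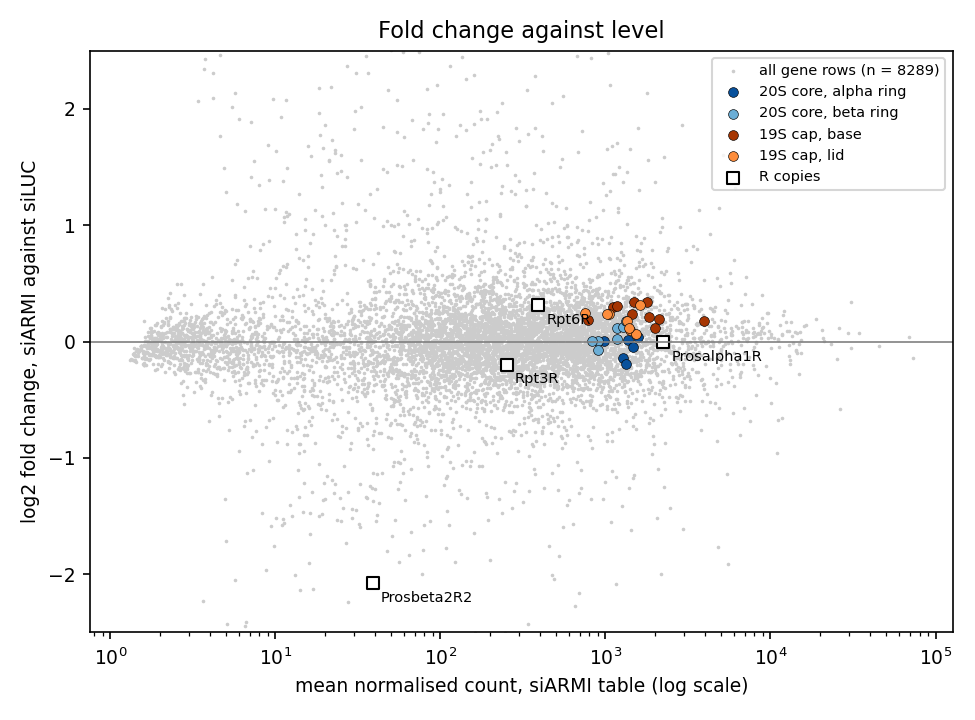
Log2 fold change after Armitage knockdown (y axis) against the mean normalised count on a log scale (x axis) for 8289 gene rows (grey, 134 of them outside the plotted range) and the proteasome subunits (general members coloured by subcomplex, R copies as open squares). General members of the core lie between counts of 827 and 1576 and those of the cap between 755 and 3943, and Prosbeta2R2 lies far below the others at a count of 38.8.

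Part of the member genes share their span with another annotated gene. Without them, a choice made after seeing the data, 6 of 9 cap members and 1 of 7 core members were called higher. Among all gene rows 14.9% were called higher, and 24.9% of those in the members' span of mean counts. The general members lie on 5 chromosome arms, and the called ones on all 5, with 4 of 9 on 2R, 4 of 9 on 3R, 3 of 5 on 3L, 2 of 4 on X and 1 of 4 on 2L called higher.

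Levels were compared as the authors' mean normalised count per kb of coding sequence, which puts genes of unlike length on one scale. In the siARMI table, core genes had a median of 1584 per kb and a narrow range from 1296 (Prosalpha7) to 2110 (Prosalpha4), a 1.63-fold span. Cap genes had a median of 1239 per kb and a wider range from 523 (Rpn1) to 1632 (Rpt1), a 3.12-fold span. Of the core genes 6 lay above the highest cap gene, but 2 (Prosalpha2 and Prosalpha3) when counts were divided by exonic length. The ratio of the medians, core over cap, was 1.28 per kb of coding length, 1.21 per kb of exonic length, and 0.90 when the counts were not divided by length.

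The order within each part was also uneven. The alpha ring had the highest median, at 1808 per kb, followed by the beta ring at 1467, the base at 1268 and the lid at 1116. Prosalpha2 stood at 1962 per kb, Prosalpha3 at 1860 and Prosalpha5 at 1755. In the beta ring the 7 genes lay between 1344 and 1671 per kb. The ATPases Rpt1, Rpt3, Rpt6 and Rpt2 had 1632, 1616, 1502 and 1359 per kb, while Rpt4 and Rpt5 had 987 and 609. In the lid Rpn11 was highest at 1517 per kb and Rpn8 lowest at 703. Since the tables give no spread between libraries for a level, neighbours in this order cannot be told apart by a test.

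In the table for Yb knockdown, which has its own scale and shares the siLUC libraries, core and cap medians were 450.2 and 318.7 per kb, a ratio of 1.41. All 35 rows together made up 0.746% of the summed mean counts in the siARMI table and 0.752% in the siYB table.

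**Figure D3:**
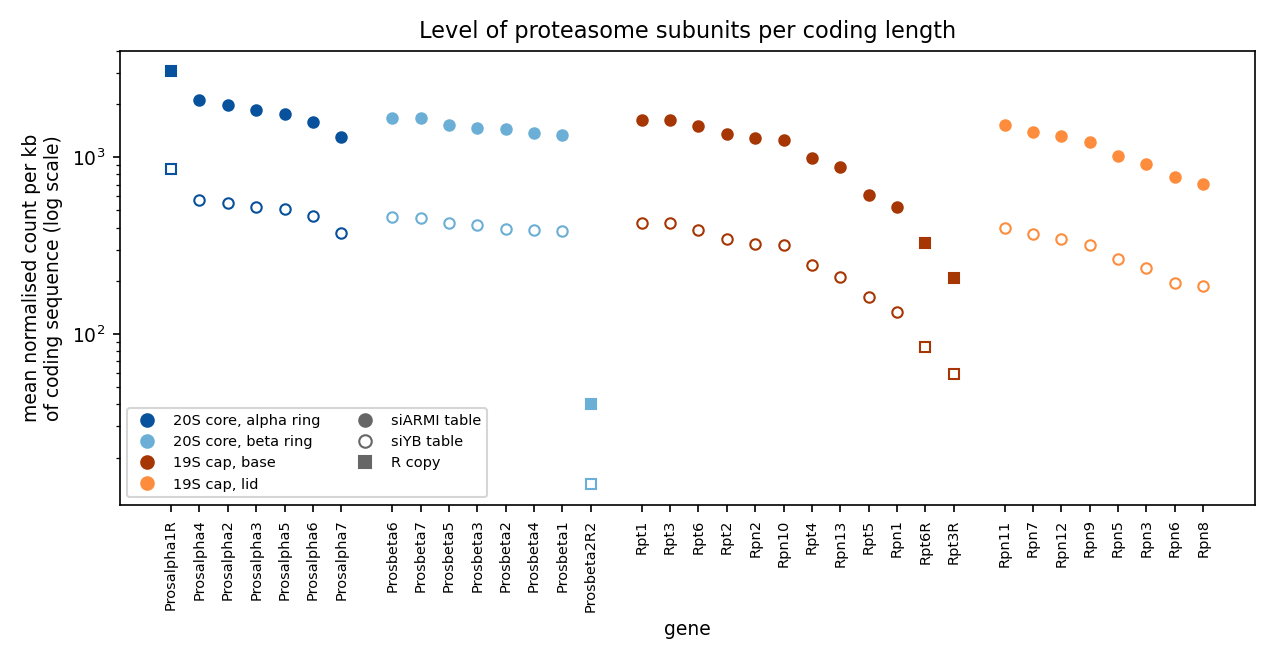
Mean normalised count per kb of coding sequence (y axis, log scale) for each subunit (x axis) in the siARMI table (filled) and the siYB table (open), coloured by subcomplex, with squares for R copies. Core genes lie between 1296 and 2110 per kb in the siARMI table, cap genes between 523 and 1632, and the R copies at both ends.

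Of the 4 R copies 1 rose, 1 fell and 2 were not called in the authors' deposited table. Over all gene rows 14.9% were called higher and 13.4% lower. With 4 genes these counts are no result about the copies as a group. Prosbeta2R2 (FBgn0037296; BDGP6.54 chromosome 3R, 5217751 to 5219528, minus strand), a relative of the trypsin-like subunit, fell by 2.08 ± 0.37 on the log2 scale, that is 76.3% lower (adjusted p = 2.52e-08, authors' deposited table). Its mean normalised count was 38.8, and per kb its level was 2.78% of that of Prosbeta2, which itself was not called (3.62% in the siYB table). It was the only member of the 35 called lower after Armitage knockdown, against 13.4% of all gene rows.

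Rpt6R (FBgn0039788; BDGP6.54 chromosome 3R, 30582198 to 30583697, minus strand), a relative of the ATPase Rpt6, rose by 0.31 ± 0.11 on the log2 scale, or 24.2% (adjusted p = 0.0168, authors' deposited table), beside 0.21 ± 0.07 for Rpt6 itself. Its level per kb was 21.7% of that of Rpt6, and 21.8% in the siYB table. Rpt3R was not called, at −0.20 ± 0.13 (adjusted p = 0.224, authors' deposited table), and its level per kb was 12.8% of that of Rpt3, and 13.9% in the siYB table. The sequences of these copies and their general partners were not used here, so reads shared between them remain an uncertainty of each value.

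Prosalpha1R had the highest level of all 35 rows, 3058 per kb, and was not called, at −0.01 ± 0.07 (log2 fold change, authors' deposited table). In the annotation it lies 1734 bases from Prosalpha1, on the same strand of chromosome 2R, and both have a coding length of 732 bases (244 residues). Prosalpha1 has no row. Whether the row named Prosalpha1R holds reads of both genes was not tested, and its level is therefore uncertain. Counted with the core it leaves 1 of 14 members called, in place of 1 of 13.

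The other T and R copies have no row, so their levels were not analysed here. Of 15 testis markers 7 had a row. The meiotic arrest gene topi fell, at −0.79 ± 0.26, and the other 6 were not called in the authors' deposited table, at −0.34 to −0.01, while aly, can, sa and 5 more had no row. The count of 1 of 7 called lower is near the 13.4% of all gene rows, and is no result about the list. The 7 mean counts summed to 1053, most of it from CycB3 at 812, and the other 6 ran from 2.56 (tomb) to 85.5 (mia). Whether the same cells carry the marker transcripts and Prosbeta2R2 was not tested. In bulk samples fewer cells of a type and less RNA per cell cannot be told apart.

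After Yb knockdown 0 of the 35 members was called in the authors' deposited table, 0 were under an unadjusted p of 0.05, and all had an adjusted p of 0.99998. Only 0.0723% of 8295 gene rows were called in this table, so a count of 0 is near that background. The unadjusted p-values of the 31 general members ran from 0.537 (Rpn7) to 0.961 (Prosalpha4) in the authors' deposited table, with a median of 0.779 in the core and 0.829 in the cap. Over all gene rows the median was 0.728 and 0.555% had an unadjusted p under 0.05, fewer than a test with evenly spread p-values gives. Of all gene rows 79.9% had an unadjusted p over 0.5. The log2 fold changes of the members had been shrunk to sizes of at most 4.45e-05 in the authors' deposited table, where 99.7% of all rows have an error under 0.01, so that neither size nor sign can be read from them. Whether cap genes respond differently to the loss of Yb and of Armitage was not tested.

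**Figure D4:**
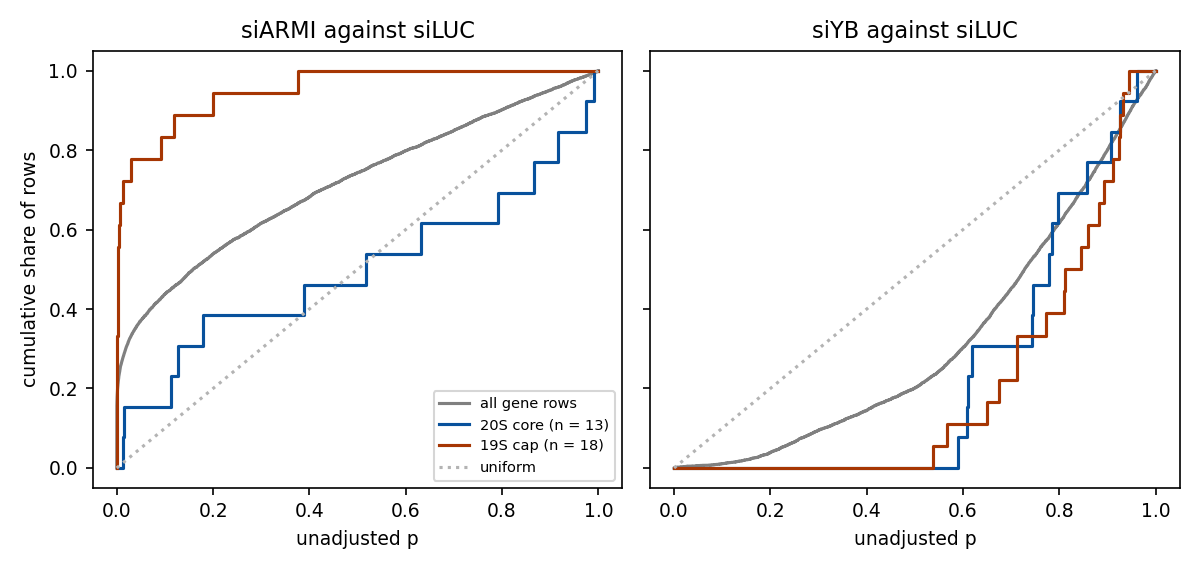
Cumulative share of rows (y axis) against the unadjusted p (x axis) for all gene rows (grey), the 13 core genes (blue) and the 18 cap genes (brown), in the siARMI table (left) and the siYB table (right); the dotted line is an even spread. Cap genes pile up at low p after Armitage knockdown, 14 of 18 under 0.05, against 37.1% of all gene rows. All members lie above 0.5 after Yb knockdown, as do 79.9% of all gene rows.

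Factors that assemble or regulate the proteasome showed single changes after Armitage knockdown. Of 17 genes asked for, 11 had a row, of which 1 rose, 1 fell and 9 were not called in the authors' deposited table (median log2 fold change −0.01). These counts are not above the shares over all gene rows, 14.9% higher and 13.4% lower, and are no result about the list. REG, an alternative cap that activates the core without ATP, fell by 0.42 ± 0.07 (adjusted p = 1.43e-07, authors' deposited table). Txl, a thioredoxin-like protein that in mammals binds the cap, rose by 0.32 ± 0.09 (adjusted p = 0.00183, authors' deposited table). Sem1, the small lid subunit outside the name pattern, was not called at 0.15 ± 0.16, nor was the core assembly factor Pomp at −0.01 ± 0.10, both in the authors' deposited table. The deubiquitinases of the cap, Uch-L5 and Usp14, stood at 0.04 ± 0.10 and 0.05 ± 0.07 in the authors' deposited table.

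The transcript of cnc itself was not called, at −0.08 ± 0.08 (adjusted p = 0.461, authors' deposited table). In the list of the Cnc pathway and its targets, 3 of 12 rose and 2 fell, with a median of 0.08 in the authors' deposited table. These counts are near the shares over all gene rows (14.9% higher, 13.4% lower) and over rows in the members' span of counts (24.9% and 22.3%). Mean counts of this list ran from 44.0 to 5030, beyond that span at both ends. Gclc, which makes the glutathione precursor, rose by 0.56 ± 0.08, Pngl, a peptide N-glycanase, by 0.30 ± 0.10, and the p62 homologue ref(2)P by 0.28 ± 0.09 in the authors' deposited table. GstD1, a glutathione transferase, stood at −0.26 ± 0.07 and the catalase gene Cat at −0.23 ± 0.09, both called lower in the authors' deposited table.

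Of 14 genes for ubiquitin, its activation, shuttles and p97, 4 rose and 0 fell in the authors' deposited table (median 0.12), while 1 more asked for had no row. None of the 14 was lower at an unadjusted p under 0.05, and 6 were higher, against 37.1% of all gene rows in either direction. The count of 4 is near the 24.9% called higher among gene rows in the members' span of counts (14.9% of all gene rows). Mean counts of this list ran from 443 to 12025, beyond that span at both ends, so the share is no matched background. The polyubiquitin genes Ubi-p5E and Ubi-p63E rose by 0.28 ± 0.06 and 0.26 ± 0.06, and the ubiquitin-ribosomal fusion genes RpL40 and RpS27A, at 0.08 ± 0.05 and 0.10 ± 0.07, were not called in the authors' deposited table. The p97 unfoldase TER94, which extracts ubiquitinated proteins, rose by 0.16 ± 0.05, and casp, a ubiquitin-binding partner of p97, by 0.36 ± 0.08 in the authors' deposited table. The shuttles Rad23 at 0.21 ± 0.09 (adjusted p = 0.0513) and Ubqn at 0.14 ± 0.06 (adjusted p = 0.0858) were not called in the authors' deposited table.

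The COP9 signalosome, a complex built like the lid from related subunits, had 8 members with a row, and 0 were called in either direction in the authors' deposited table (0 at an unadjusted p under 0.05). Over all gene rows 28.3% were called and 37.1% had an unadjusted p under 0.05. The difference from these shares was not tested with so few genes. Log2 fold changes of the 8 members ran from −0.07 (CSN1b) to 0.21 (alien) with a median of 0.03 in the authors' deposited table. Their mean counts, 165 to 589, were below those of all 31 general proteasome members. No difference between these lists and the cap was tested.

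**Figure D5:**
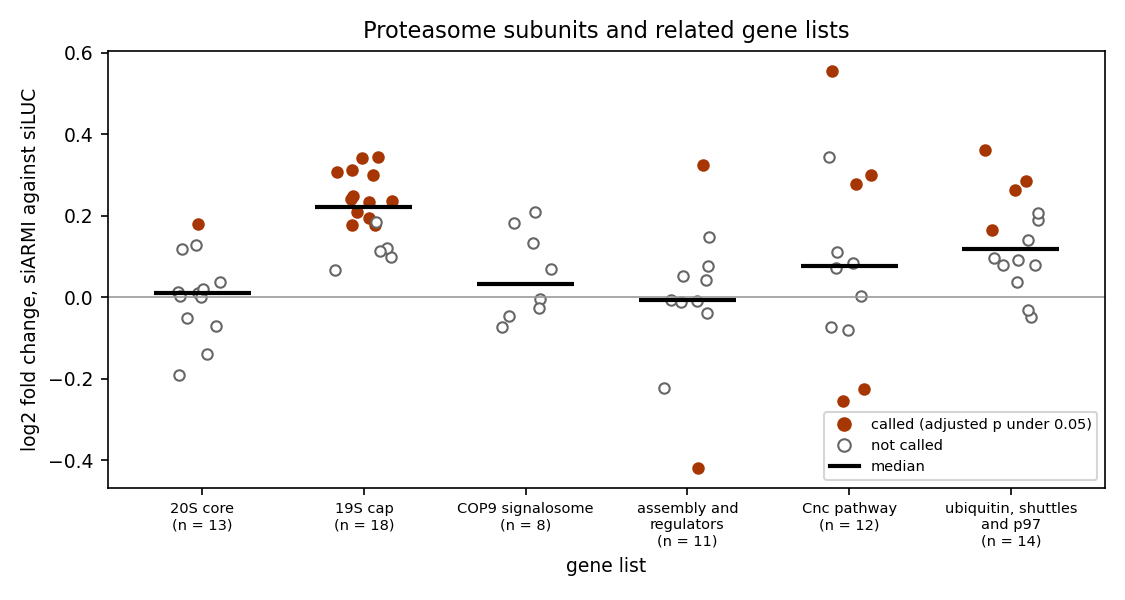
Log2 fold change after Armitage knockdown (y axis, authors' deposited table) of the core, the cap and 4 related lists (x axis, with the number of genes); each point is a gene, brown if called, and lines are medians, at 0.01, 0.22, 0.03, −0.01, 0.08 and 0.12 from left to right. Points are spread sideways at random for display.

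The cells carried transcripts of their labelled type. All 8 markers of ovarian somatic cells had a row, with mean counts from 213 (ct) to 5825 (tj), averaged over siARMI and siLUC libraries. In the table for Yb knockdown, on its own scale, the counts ran from 18.8 (ct) to 1619 (tj). After Armitage knockdown 4 rose and 3 fell in the authors' deposited table, against 14.9% and 13.4% of all gene rows. Fas3, ct, eya and LamC were called higher, at 2.13, 2.53, 1.15 and 1.63 on the log2 scale, and tj, piwi and fs(1)Yb lower, at −0.30, −0.52 and −0.26 (authors' deposited table). Of 9 germ line markers 8 had a row, 5 of them with a mean count under 10, and spn-E and krimp, which these cells also express, had most of their summed count of 4649. AGO3, osk and spn-E were called higher, at 1.82 ± 0.25, 1.29 ± 1.43 and 0.26 ± 0.07 in the authors' deposited table, osk at a mean count of 5.05. These are 3 of 8, against 14.9% of all gene rows called higher, a difference that was not tested. The defining germ line genes vas, aub, bam and rhi had mean counts from 2.29 to 6.34 and were not called, and nos had no row. Of 5 markers of hemocytes and fat body 1, srp, had a row and rose, at 1.05 in the authors' deposited table. These lists moved after the same knockdown as the cap genes, and their part in the cap result was not tested.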

How the data were processed

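RNA was measured by poly(A) RNA-seq in 3 siLUC, 3 siYB and 3 siARMI libraries. The authors deposited 2 tables of results, with the columns of DESeq2 output per the file headers. Mean normalised counts (a signal scaled within each table), log2 fold changes with their errors, and p-values are the authors' deposited values. DESeq2, edgeR, Salmon 1.7.0, STAR, Bowtie and HOMER appear in the submitters' processing notes, which state no roles. Genome build, annotation and use of strand in counting: not given in the sources used here.

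The deposited adjusted p-values equal a Benjamini-Hochberg adjustment over all rows, recomputed here, and a threshold of 0.05 defines a call. Over the general members, the ratio of log2 fold change to error was 0.98 (median) of the normal quantile of the p-value in the siARMI table. In the siYB table nearly every log2 fold change was shrunk to about 0, with an error below 0.01 in 99.7% of rows.

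Gene spans, coding lengths (the longest annotated) and positions come from BDGP6.54 (Ensembl release 115), matched by symbol. A coding length was found for 97.6% of gene rows. Lists were matched by symbol or a single synonym. Calls were computed in Python 3.11.15 with pandas 2.3.3, numpy 2.4.6 and scipy 1.17.1, figures with matplotlib 3.10.9, and the adjustment was tested on simulated data. Protein and promoter sequences were not used here, so the planned comparison of copies and motif search were not run. Alternatives covered the threshold, the rows adjusted over, the p-value, a minimum change, overlapping genes and the length term. Members, lists and tests were chosen with earlier results of these data known. The rule for named genes took every called member, the highest and lowest of alpha ring, beta ring, base and lid, all R copies with a row, both siRNA targets, every called list member and cnc; other genes were named after their values were seen.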

Additional observations from a re-analysis of the deposited data

How the results depend on the processing

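Counts of called members depended on the threshold. At an adjusted p under 0.01, 7 general members rose (7 of the cap and 0 of the core) in place of 14, and at 0.1 there were 1 lower and 2 called core members, since Prosalpha6 then passed. Adjustment over rows at or above the median count likewise gave 1 lower and 2 called in the core. A normal p from log2 fold change over error gave 0 in the core and 12 in the cap, as Prosbeta7 and Rpn3 no longer passed, so 12 general members rose. A minimum size of 0.5 for the log2 fold change left 0 higher, 0 in the core and 0 in the cap. Without members overlapping another gene, chosen after seeing the data, 7 rose, 6 of them of the cap; fewer genes are counted there. Adjustment over gene rows alone changed no call of the 23 named members. Medians of cap, core and all general members kept their sign and moved by less than the median error when centred on all gene rows, with R copies, or above the median count. The core-to-cap ratio of levels was 1.28 per kb of coding length, 1.21 per kb of exonic length, 1.41 in the siYB table and 0.90 with no length term, which reverses it. The count of core genes above every cap gene was 6 per coding kb and 2 per exonic kb, the latter chosen after seeing the data. No call was made for any general member after Yb knockdown under the 6 alternatives. No paired analysis was possible because the tables hold no values of single libraries, and leaving out replicates was not run for the same reason. Depth per library is unknown, so what it limits cannot be given.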

Other observations

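The nearest rows on either side of Prosbeta2R2 were cno, 294 bases away on the same strand, which rose by 0.36 ± 0.06 (adjusted p = 1.05e-08), and CG1116, 128 bases away on the opposite strand, which was not called at −0.04 ± 0.14, both in the authors' deposited table. Beside Prosbeta7, the nearer row CG1161, 263 bases away on the opposite strand, was not called at 0.24 ± 0.11 (adjusted p = 0.0682), and Cerk, 508 bases away on the same strand, rose by 0.70 ± 0.13, both in the authors' deposited table. Beside Rpn10, the nearest rows Mkrn1 and COX8 were not called, at 0.12 ± 0.09 and −0.22 ± 0.10 in the authors' deposited table. These neighbours were named after their values were seen.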
